A study of Mus musculus with 8 samples.

Results

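The tubulin isotypes of differentiating mouse myoblasts were followed through 10 genes, 5 encoding beta-tubulins (Tubb2a, Tubb2b, Tubb3, Tubb5 and Tubb6) and 5 encoding alpha-tubulins (Tuba1a, Tuba1b, Tuba1c, Tuba4a and Tuba8). They were found by gene symbol among 23115 loci of the female knockout table, 28603 of the male knockout table and 28748 of the KI table. Each isotype had 1 row in all 3 tables, and 0 rows carried the name of another gene as well, although the loci of Tuba4a, Tubb6 and Tubb2b overlapped those of other rows, as given with their values. The isotypes were selected on the FPKM and the mutant-to-control ratios of these same tables, so their values are a description and carry no test.

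The cells were satellite cells, the stem cells of skeletal muscle, sorted from B6/129 mice by a red reporter and differentiated for 24 h. Female UTX knockout (KO) cells carried a floxed allele of the X-linked histone demethylase gene Kdm6a (UTX), Pax7-CreER and the floxed TdTomato reporter at Rosa26, and female WT cells carried Pax7-CreER and the reporter alone. Male KO and male WT cells were labelled by UTX status and sex with no genotype given, as were female KI and Ctrl-KI cells, and the nature of the KI allele is not given. Pax7-CreER limits recombination to cells that express Pax7 when tamoxifen acts, and per the labels' protocols, worded alike for all samples, the growth medium held 20% serum, 2.5 ng/mL FGF and 2.5 µM 4-hydroxytamoxifen. Ages and the number of mice are not given. There were 8 libraries: 1 for each of the 4 KO and WT groups, and 2 each for KI and Ctrl-KI, which the table gives only as 1 pooled value per group. No group therefore has replicate values, no difference here has a replicate check, and the interval deposited with each FPKM (fragments per kilobase of transcript, scaled to the mapped fragments of the library) is the only error.

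Microtubules are hollow polymers of alpha- and beta-tubulin dimers. The several genes of each class encode isotypes that share a conserved core and differ most in the acidic tail at the carboxyl end, which lies on the outside of the microtubule and is where motors, associated proteins and modifying enzymes act. Alpha-tubulin tails normally end in a tyrosine that vasohibin enzymes remove and tubulin tyrosine ligase puts back. When myoblasts differentiate, microtubules leave the centrosome, are organised from the nuclear envelope and line up along the lengthening cell. Tubb6 is known as a beta-tubulin of regenerating and dystrophic muscle, Tubb3 as the beta-tubulin of neurons, and Tubb5 as a broadly expressed isotype of dividing cells.

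To show the tails, the last 63 coding bases of 6 isotypes are given here, from the GENCODE M21 transcripts (GRCm38), with the last codon before the stop in capitals:
Tubb2a: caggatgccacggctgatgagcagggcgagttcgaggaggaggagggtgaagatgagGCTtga
Tubb2b: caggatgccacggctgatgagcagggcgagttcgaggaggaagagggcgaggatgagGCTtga
Tubb3: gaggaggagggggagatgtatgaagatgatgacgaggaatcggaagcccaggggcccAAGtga
Tubb5: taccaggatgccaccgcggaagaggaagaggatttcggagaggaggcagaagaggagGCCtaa
Tuba4a: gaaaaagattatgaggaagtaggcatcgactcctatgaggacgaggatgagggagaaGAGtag
Tuba8: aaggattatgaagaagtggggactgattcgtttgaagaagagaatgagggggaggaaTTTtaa
Tubb2a and Tubb2b differ at only a few of these bases, whereas Tubb3, Tubb5, Tuba4a and Tuba8 each have a sequence of their own. The last codon was GAG, a glutamate codon, in Tuba4a and TTT, a phenylalanine codon, in Tuba8. Over the whole coding sequence Tuba1a and Tuba1b were 98.3% identical, Tuba1b and Tuba1c 97.9%, Tuba1a and Tuba1c 97.1%, and Tubb2a and Tubb2b 96.5%. The next closest pair, Tubb3 and Tubb6, was 85.7% identical, and Tubb5 and Tubb6 were 80.2% identical.

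This likeness bears on how far a level belongs to 1 gene. Of all 50-base stretches of the transcript, 72.9% in Tuba1a, 73.8% in Tuba1b and 61.0% in Tuba1c also occurred in a transcript of another gene, as did 49.6% in Tubb2a and 39.3% in Tubb2b. In Tubb3 and Tubb6 the share was 0%, in Tubb5 0.115%, in Tuba4a 1.11% and in Tuba8 0.181%. Read length and the handling of reads with several matches are not given in the sources used here, so the split among Tuba1a, Tuba1b and Tuba1c, and between Tubb2a and Tubb2b, is uncertain, while Tubb3, Tubb5, Tubb6 and Tuba4a share little sequence with other genes.

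**Figure D1:**
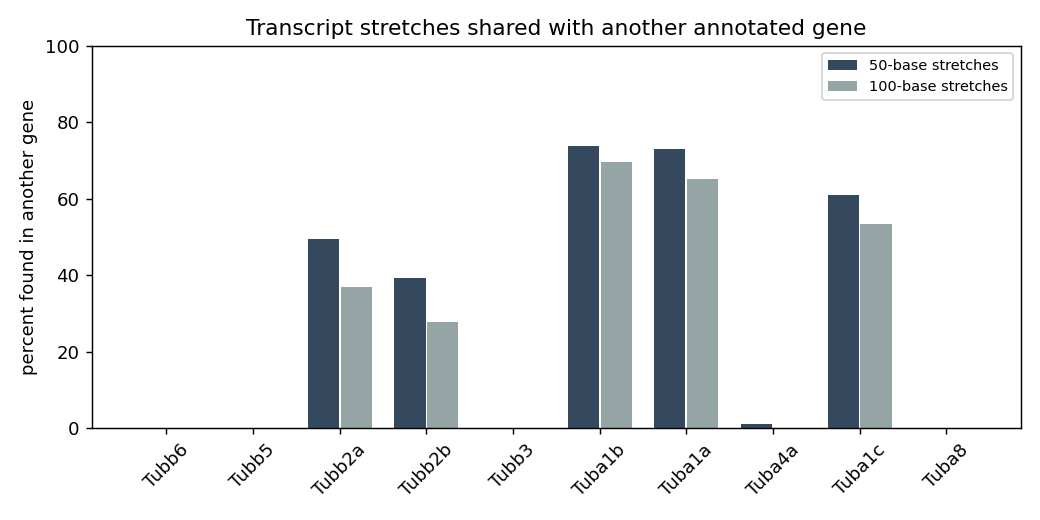
Percent of 50-base (dark bars) and 100-base (light bars) stretches of each isotype's GENCODE transcript that also occur in a transcript of another gene. The Tuba1 genes lie between 53.4% and 73.8%, Tubb2a and Tubb2b between 27.7% and 49.6%, and the other isotypes at or under 1.11%.

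Filtering kept loci with a symbol, a status of OK and at least 1 FPKM in 1 column, which left 12344 genes in the female KO table, 11440 in the male KO table and 11084 in the KI table. Of the 10 isotypes, 9 passed in every table, each with at least 2.82 FPKM in both columns. Tuba8, an alpha-tubulin, did not pass in any table. It was 0.589 FPKM in female KO and 0.0893 in female WT cells, 0.0162 in male KO and 0.0161 in male WT cells, and 0.0112 in KI and 0.0101 in Ctrl-KI cells, and every one of these intervals reached 0. Read depth is unknown. Among values under 0.3 FPKM, the most frequent mutant-to-control ratio was 0.660 for female KO (56 of 1901 loci), 0.986 for male KO (141 of 6628) and 0.835 for KI (95 of 8460). Whether these ratios follow the worth of single reads was not tested, and the KI and Ctrl-KI columns each pool 2 libraries. The deposited interval of the 9 isotypes had a median width, relative to the FPKM, of 108% in female KO and 111% in female WT cells, 147% in male KO and 146% in male WT cells, and 37.98% in KI and 37.97% in Ctrl-KI cells. The deletion is checked only weakly by the whole-gene value of Kdm6a, which was 16.9 FPKM in female KO and 20.8 in female WT cells, 2.08 in male KO and 7.87 in male WT cells, and 13.2 in KI and 12.8 in Ctrl-KI cells.

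The proportions of the beta-tubulins Tubb5 and Tubb6 differed between mutant and control in all 3 tables. Tubb5 was higher and Tubb6 lower in the mutant cells of all 3 tables, by different amounts. Among alpha-tubulins, Tuba4a and Tuba1b were lower in all 3 tables. Tubb3 was much lower in KI, lower in male KO and nearly level in female KO cells. Every interval pair overlapped in the female and male KO tables, and 3 isotypes, Tubb3, Tubb5 and Tuba4a, had intervals apart in the KI table.

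**Figure D2:**
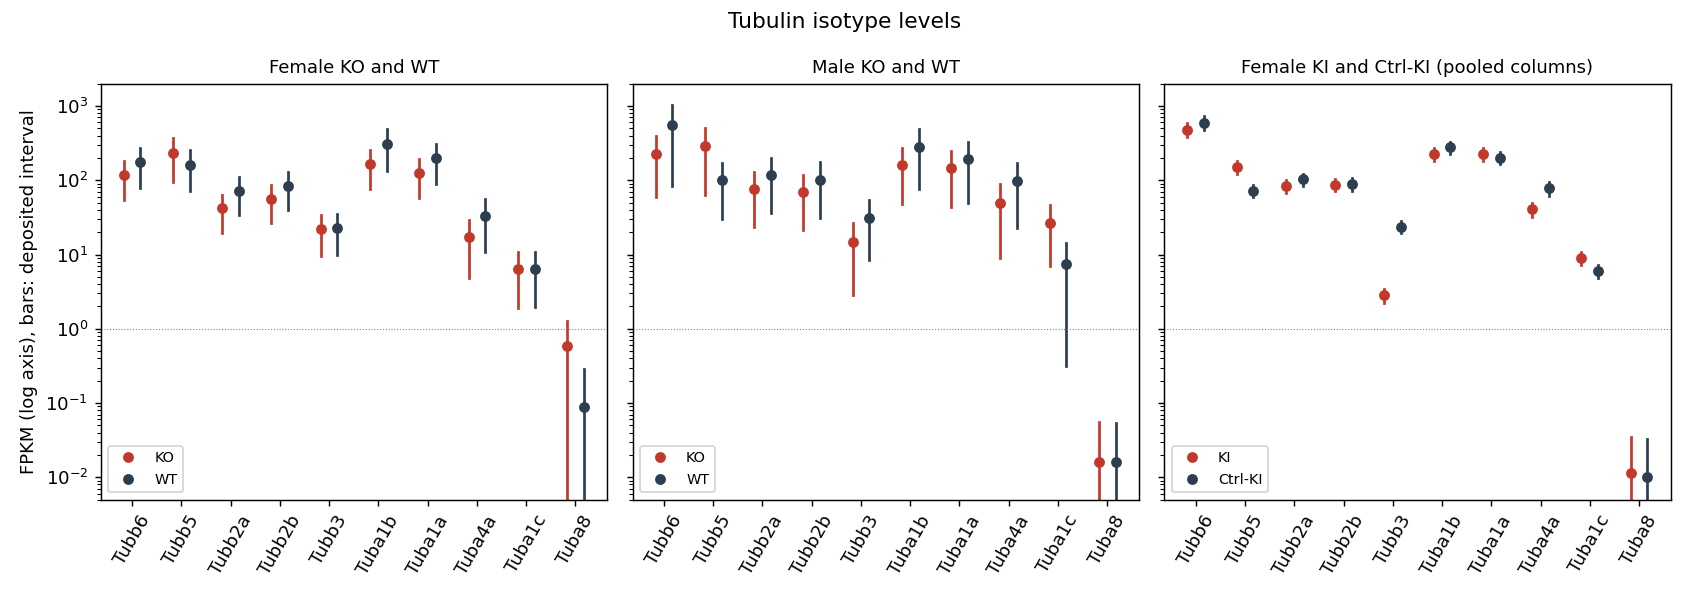
FPKM of the 10 isotypes on a log axis, with the deposited interval as a bar, for KO and WT cells of each sex and for the pooled KI and Ctrl-KI columns. Bars that run off the lower edge reach 0; the dotted line marks 1 FPKM. Intervals of mutant and control overlap everywhere except for Tubb5, Tubb3 and Tuba4a in the KI panel, and the Tuba8 points lie under the line in all 6 columns.

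Tubb5 (mm9 chromosome 17, 35970865 to 35975246), a beta-tubulin of many proliferating cells, was 234 FPKM in female KO cells (interval 95.9 to 373), against 162 in female WT cells (70.9 to 253). In males it was 288 FPKM in KO cells (62.5 to 513), against 102 in WT cells (30.3 to 173). In the KI table it was 151 FPKM in KI cells (122 to 180), against 72.7 in Ctrl-KI cells (59.0 to 86.4). The mutant column was the higher of the pair each time, with intervals that overlapped in both KO tables and did not in the KI table. On the log2((FPKM + 1)/(FPKM + 1)) scale, mutant over control, these were 0.53 in female KO, 1.49 in male KO and 1.04 in KI. The added 1 FPKM understates the change of low genes. Of all kept genes, 85.9%, 95.3% and 96.3% had a lower ratio in the female KO, male KO and KI tables.

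Tubb6, on chromosome 18, was the most abundant isotype of male WT, Ctrl-KI and KI cells and is known for its part in muscle regeneration. It was 117 FPKM in female KO cells (interval 53.7 to 181), against 175 in female WT cells (78.3 to 271). In males it was 225 FPKM in KO cells (59.1 to 391), against 550.04 in WT cells (82.8 to 1017). Among KI and Ctrl-KI cells it was 479.98 FPKM in KI cells (378 to 582), against 596 in Ctrl-KI cells (469 to 722). All 3 pairs overlapped in their intervals, and the log2 ratios were -0.57, -1.29 and -0.31. In the KI table the Tubb6 locus was drawn wider than in the others and shared 59750 bases with that of Afg3l2, a mitochondrial protease gene at 40.2 FPKM in KI and 44.5 in Ctrl-KI cells.

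Set against each other within a column, Tubb6 exceeded Tubb5 in every control column and in KI cells, and Tubb5 exceeded Tubb6 in KO cells of both sexes. The intervals of Tubb5 and Tubb6 overlapped in the KO and WT columns of both sexes and were apart in KI and Ctrl-KI cells. Tubb6 was 0.500 of the Tubb5 level in female KO cells and 1.08 times in female WT cells. It was 0.782 times the Tubb5 level in male KO cells and 5.41 times in male WT cells, and 3.18 times in KI cells and 8.19 times in Ctrl-KI cells. The ratio was thus lower in each mutant column, while the female WT value lay far under the other control values. Levels of different tables were estimated separately, and the difference between tables was not tested.

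Tubb2a (mm9 chromosome 13, 34166147 to 34169877) and Tubb2b (34218877 to 34222223), neighbours whose products are abundant in brain, were lower in KO cells of both sexes. Tubb2a was 42.0 FPKM in female KO and 72.7 in female WT cells, 76.5 in male KO and 119 in male WT cells, and 83.6 in KI and 103 in Ctrl-KI cells. Tubb2b was 56.1 FPKM in female KO and 84.3 in female WT cells, 69.4 in male KO and 102 in male WT cells, and 87.2 in KI and 89.5 in Ctrl-KI cells. Neither reached 2-fold in any table, and the Tubb2b ratio of KI cells lay above 0, at 0.06, with TPM. The KI table drew the Tubb2b locus wider, and its 9435 bases were shared with an unnamed locus at 0.113 FPKM in KI and 0.0797 in Ctrl-KI cells. The log2 ratios were -0.78, -0.63 and -0.29 for Tubb2a and -0.58, -0.55 and -0.04 for Tubb2b, in the order female KO, male KO and KI.

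Tubb3 (mm9 chromosome 8, 125935464 to 125945910), used as a marker of neurons, was 2.82 FPKM in KI cells (interval 2.195 to 3.45), against 23.8 in Ctrl-KI cells (19.3 to 28.3). These intervals lay far apart. The FPKM ratio was 0.119, the log2 ratio -2.70, and 0.171% of the 11084 kept genes of that table had a lower one. In males Tubb3 was 14.8 FPKM in KO cells (2.87 to 26.8), against 31.1 in WT cells (8.42 to 53.8), a log2 ratio of -1.02. In females it was 21.7 FPKM in KO cells (9.62 to 33.8), against 22.4 in WT cells (9.93 to 34.9), a log2 ratio of -0.04. In both KO tables the intervals overlapped, and the female ratio became 0.04 with median-centred ratios and 0.13 with TPM (FPKM rescaled to the same sum in each column, over loci with a symbol).

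Markers of neurons were low in all 6 columns, and their part in the Tubb3 values was not tested. The 11 markers looked for summed to 4.27 FPKM in female KO and 2.51 in female WT cells, to 12.7 in male KO and 1.83 in male WT cells, and to 2.44 in KI and 1.30 in Ctrl-KI cells. Snap25, a synaptic protein gene, was listed at 0 in both female columns and was at most 0.0256 FPKM elsewhere, and Rbfox3, a nuclear marker of neurons, was at most 0.00870 FPKM. Of the 11, 1 was kept in the female KO, 3 in the male KO and 0 in the KI table, and the others could not be called. In male KO cells all 3 kept markers were at least 2-fold higher, beside 9.9% of all kept genes. These were Stmn2, a stathmin of neurons, at 6.04 FPKM in male KO and 0.0217 in male WT cells, and the neurofilament genes Nefm, at 3.71 FPKM in male KO and 0.437 in male WT cells, and Nefl, at 2.14 FPKM in male KO and 0.225 in male WT cells. All 3 were under 1 FPKM in male WT cells and were kept only through male KO cells, so they could only be higher there. The count therefore cannot be read against the 9.9%. Their male KO intervals reached 0 and overlapped those of male WT cells. In the KI table Stmn2, at 0.266 FPKM in KI and 0.00389 in Ctrl-KI cells, Dcx, at 0.493 FPKM in KI and 0.187 in Ctrl-KI cells, and Mtap2, at 0.922 FPKM in KI and 0.550 in Ctrl-KI cells, had intervals apart.

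Among the alpha-tubulins, Tuba4a (mm9 chromosome 1, 75207404 to 75215828), the isotype whose gene ends in a glutamate codon, was 17.006 FPKM in female KO cells (interval 4.83 to 29.2), against 33.1 in female WT cells (10.9 to 55.3). In males it was 49.3 FPKM in KO cells (8.86 to 89.8), against 96.7 in WT cells (22.8 to 171). The pooled columns gave 40.8 FPKM in KI cells (31.7 to 49.999), against 78.6 in Ctrl-KI cells (62.1 to 95.1). The 3 log2 ratios were close to each other, -0.92, -0.96 and -0.93, just short of 2-fold, with intervals apart only in the KI table. Its locus shares 8425 bases with Stk16, a kinase gene whose FPKM was 8.95 in female KO and 13.2 in female WT cells, 13.1 in male KO and 12.8 in male WT cells, and 11.8 in KI and 12.9 in Ctrl-KI cells. These 8425 bases are the whole Tuba4a locus as drawn, where the RefSeq gene has 6290, so how far the 2 transcripts overlap is not shown. Strand was not stated either, so whether reads of 1 gene count for the other is unknown.

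Tuba1b (mm9 chromosome 15, 98761862 to 98764821), Tuba1a (98780278 to 98783932) and Tuba1c (98860322 to 98868536) lie near each other and encode the alpha-tubulins of most tissues. Tuba1b was 165 FPKM in female KO and 310.4 in female WT cells, 159.9 in male KO and 282 in male WT cells, and 227 in KI and 278 in Ctrl-KI cells. Tuba1a, best known from migrating neurons, was 125 FPKM in female KO and 201 in female WT cells, 147 in male KO and 190.3 in male WT cells, and 227 in KI and 202 in Ctrl-KI cells. Tuba1b was lower in each mutant column, with log2 ratios of -0.91, -0.82 and -0.29, and Tuba1a was lower in both KO columns and slightly higher in KI cells, with -0.67, -0.37 and 0.17. Tuba1b was 1.31 times Tuba1a in female KO and 1.55 times in female WT cells, 1.09 times in male KO and 1.48 times in male WT cells, and 1.001 times in KI and 1.38 times in Ctrl-KI cells.

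Tuba1c, the scarcest of the 3, was higher in male KO cells. It was 26.5 FPKM in male KO cells (interval 6.99 to 46.1), against 7.40 in male WT cells (0.314 to 14.5), a log2 ratio of 1.71 that exceeded those of 97.0% of kept genes. In females it was 6.29 FPKM in KO cells (1.90 to 10.7), against 6.44 in WT cells (1.96 to 10.9), a log2 ratio of -0.03. Its level was 8.90 FPKM in KI cells (7.13 to 10.7), against 6.07 in Ctrl-KI cells (4.83 to 7.30), a log2 ratio of 0.49. The male KO column was the only one above 8.90 FPKM, and its interval overlapped that of male WT.

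**Figure D3:**
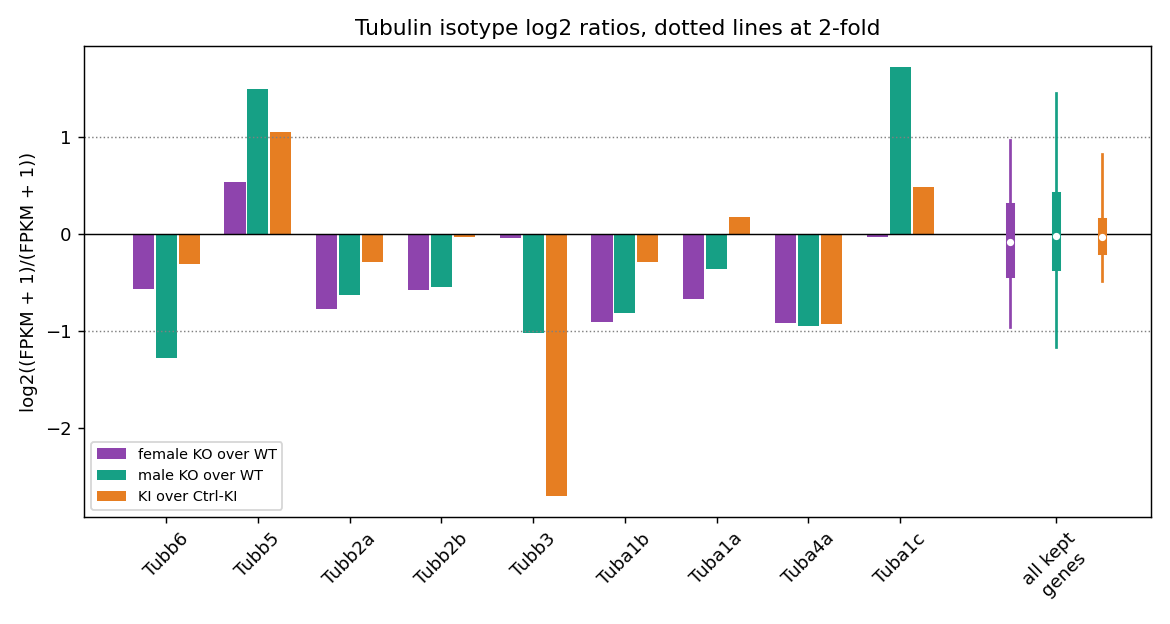
Log2 ratio of mutant over control FPKM, with 1 FPKM added to each, for the 9 kept isotypes in the 3 tables; dotted lines mark 2-fold. At the right, thick and thin lines span the middle 50% and 90% of all kept genes and the white dot is their median (-0.08, -0.02 and -0.04). Tubb5 is above 0 in every table, Tubb6, Tubb2a, Tubb2b, Tubb3, Tuba1b and Tuba4a are below 0 in every table as drawn (not with TPM or median-centring for Tubb3 in female KO and Tubb2b in KI), and Tubb3 in KI, at -2.70, is the longest bar.

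Counted over the family, female KO cells had 0 of 9 kept isotypes past 2-fold in either direction, where 4.49% of all kept genes were higher and 4.4% lower by that rule. That balance depended on the scaling, since higher genes made up 50.5% of those past 2-fold in female KO cells, 63.2% with median-centred ratios and 73.7% with TPM. In male KO cells they made up 60.5%, and 71.6% with TPM. In male KO cells Tubb5 and Tuba1c were at least 2-fold higher (2 of 9, beside 9.9% of kept genes) and Tubb6 and Tubb3 at least 2-fold lower (2 of 9, beside 6.47%). In KI cells Tubb5 was at least 2-fold higher (1 of 9, beside 3.86%) and Tubb3 at least 2-fold lower (1 of 9, beside 0.893%). Intervals did not overlap for 1 isotype on the higher side and 2 on the lower side in the KI table, beside 8.27% and 3.73% of kept genes. In the female KO table intervals were apart for 0 isotypes, beside 0.664% of kept genes higher and 0.235% lower, and in the male KO table for 0, beside 0.603% and 0.262%. The median log2 ratio of the 9 isotypes was -0.58 in female KO, -0.63 in male KO and -0.29 in KI cells, where that of all kept genes was -0.08, -0.02 and -0.04. Below 0 were 8 of 9 isotypes in female KO, 7 of 9 in male KO and 6 of 9 in KI cells, and with TPM or median-centred ratios 6, 7 and 5 of 9. With 1.5-fold as the rule, 0 isotypes were higher (beside 12.3% of kept genes) and 4 lower (15.6%) in female KO, 2 higher (18.5%) and 5 lower (13.8%) in male KO, and 1 higher (7.37%) and 2 lower (3.29%) in KI cells. These counts describe genes picked with the values known, so nothing is read from them against the background.

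FPKM is scaled by transcript length, so isotypes can be added up within a column. The 8 alpha-tubulin loci of the tables summed to 314 FPKM in female KO and 551 in female WT cells, to 383 in male KO and 577 in male WT cells, and to 504 in KI and 565 in Ctrl-KI cells. The 8 beta-tubulin loci summed to 518 FPKM in female KO and 567 in female WT cells, to 807 in male KO and 984 in male WT cells, and to 871 in KI and 953 in Ctrl-KI cells. On the FPKM scale both classes were lower in each mutant column. Alpha-tubulin was 0.570 of the control sum in female KO, 0.664 in male KO and 0.893 in KI cells, and beta-tubulin 0.915, 0.820 and 0.914. With TPM these ratios were 0.645, 0.746 and 0.957 for alpha-tubulin and 1.04, 0.921 and 0.980 for beta-tubulin, so the beta sum of female KO cells then lay above its control.

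Within the beta class, Tubb6 made up 22.6% of the summed FPKM in female KO and 30.8% in female WT cells, 27.9% in male KO and 55.9% in male WT cells, and 55.1% in KI and 62.5% in Ctrl-KI cells. Tubb5 made up 45.2% in female KO and 28.6% in female WT cells, 35.7% in male KO and 10.3% in male WT cells, and 17.3% in KI and 7.63% in Ctrl-KI cells. By these values Tubb5 was the leading beta-tubulin in KO cells of both sexes and Tubb6 in all control columns and in KI cells. In the KO and WT columns of both sexes the FPKM intervals of Tubb5 and Tubb6 overlapped, so only the lead in KI and Ctrl-KI cells was separated. In the female WT column the lead of Tubb6 was small. Tubb4b, a widespread beta-tubulin outside the 10, made up 7.55% in female KO and 8.44% in female WT cells, 16.2% in male KO and 8.11% in male WT cells, and 7.56% in KI and 7.14% in Ctrl-KI cells. Tubb3 was 4.19% in female KO and 3.95% in female WT cells, 1.84% in male KO and 3.16% in male WT cells, and 0.324% in KI and 2.50% in Ctrl-KI cells.

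The alpha class kept its order more closely. Tuba1b made up 52.5% in female KO and 56.4% in female WT cells, 41.7% in male KO and 49.0% in male WT cells, and 45.1% in KI and 49.2% in Ctrl-KI cells. Tuba4a made up 5.41% in female KO and 6.01% in female WT cells, 12.9% in male KO and 16.8% in male WT cells, and 8.10% in KI and 13.9% in Ctrl-KI cells. Both shares were smaller in each mutant column. Tuba1a made up 39.9% in female KO and 36.4% in female WT cells, 38.4% in male KO and 33.0% in male WT cells, and 45.04% in KI and 35.8% in Ctrl-KI cells.

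**Figure D4:**
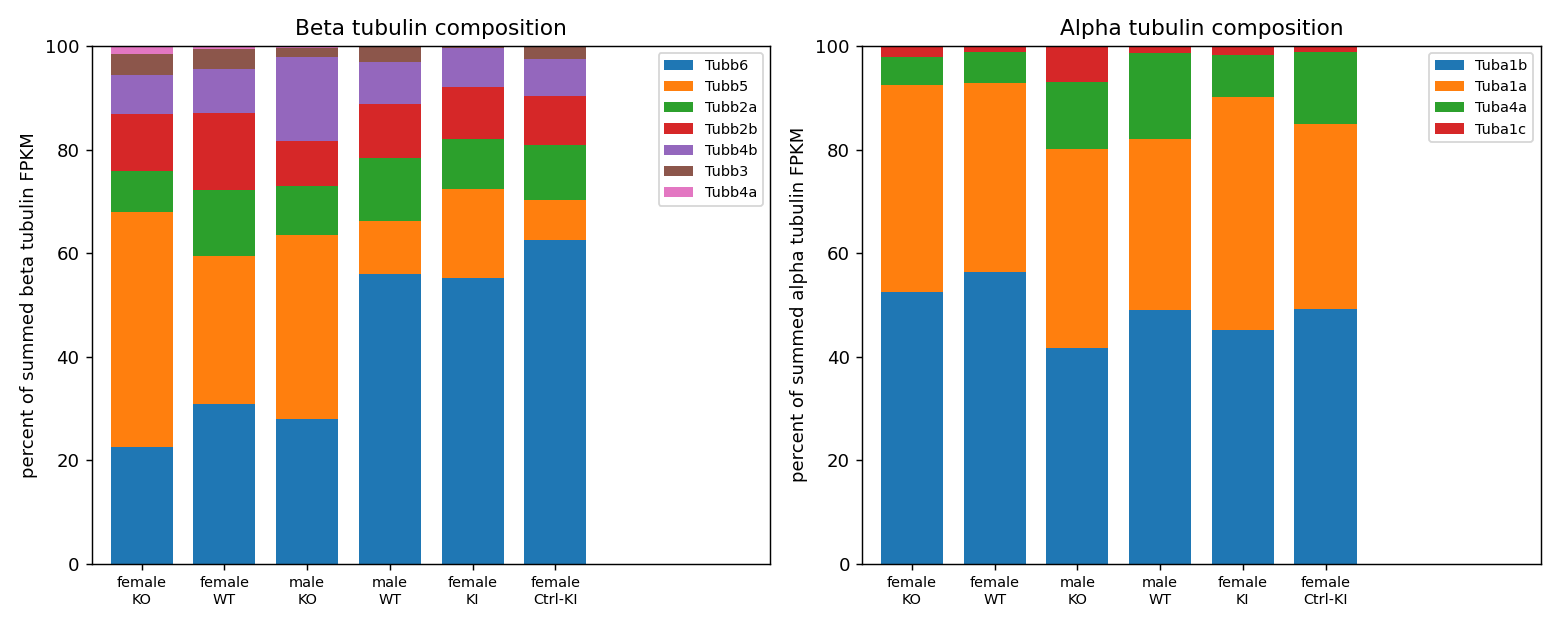
Stacked bars of the share of each isotype in the summed beta-tubulin FPKM (left) and alpha-tubulin FPKM (right) of each column, with mutant columns left of their controls. The Tubb5 band is wider and the Tubb6 band narrower in each mutant column; loci under 0.2% in every column (Tubb1, Tuba3a, Tuba3b, Tuba8 and Tubal3) are not drawn.

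Neighbouring levels within a column were mostly not separated in the KO tables and often were in the KI table. In the KO and WT columns of both sexes, the 9 kept isotypes lay in a chain in which each overlapped the next in its interval. In KI cells the order was Tubb6, Tuba1b, Tuba1a, Tubb5, Tubb2b, Tubb2a, Tuba4a, Tuba1c, Tubb3 and Tuba8, and every neighbouring pair had intervals apart except Tuba1b with Tuba1a and Tubb2b with Tubb2a. In Ctrl-KI cells the order was Tubb6, Tuba1b, Tuba1a, Tubb2a, Tubb2b, Tuba4a, Tubb5, Tubb3, Tuba1c and Tuba8. There Tuba1b overlapped Tuba1a, and the intervals from Tubb2a down to Tubb5 overlapped from each to the next.

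Promoter sequence is shown for Tubb5, higher in every mutant column, and for Tubb3 and Tuba4a, whose intervals were apart in the KI table. The windows run from 250 bases before to 50 after the start of the gene (RefSeq, GRCm38.p6), with capitals for each match to CANNTG (E-box, the word bound by myogenic factors such as MyoD and myogenin), CCAAT and TATAAA, on either strand:
Tubb5 (chr17:35838252-35838551, minus strand): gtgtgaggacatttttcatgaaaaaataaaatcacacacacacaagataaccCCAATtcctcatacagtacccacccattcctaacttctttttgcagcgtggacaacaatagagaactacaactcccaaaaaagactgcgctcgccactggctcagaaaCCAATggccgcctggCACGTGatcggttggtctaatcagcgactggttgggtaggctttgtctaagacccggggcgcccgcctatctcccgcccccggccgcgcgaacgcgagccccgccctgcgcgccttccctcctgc
Tubb3 (chr8:123411303-123411602, plus strand): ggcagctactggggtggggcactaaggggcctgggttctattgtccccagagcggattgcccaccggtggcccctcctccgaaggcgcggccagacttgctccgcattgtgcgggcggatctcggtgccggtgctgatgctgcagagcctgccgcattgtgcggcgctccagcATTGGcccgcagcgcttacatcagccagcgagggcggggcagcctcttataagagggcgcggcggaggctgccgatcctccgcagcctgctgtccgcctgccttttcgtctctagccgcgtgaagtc
Tuba4a (chr1:75219245-75219544, minus strand): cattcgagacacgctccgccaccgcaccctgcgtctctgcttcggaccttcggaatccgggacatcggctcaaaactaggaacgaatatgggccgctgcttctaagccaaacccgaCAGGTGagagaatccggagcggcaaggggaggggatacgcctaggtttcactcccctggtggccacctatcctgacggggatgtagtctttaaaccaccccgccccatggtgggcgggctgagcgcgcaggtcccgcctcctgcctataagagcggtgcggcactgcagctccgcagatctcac
Tubb5 held CCAAT at 198 and 90 bases and CACGTG at 75 bases before the start, Tubb3 held CCAAT on the other strand at 77 bases, and Tuba4a held CAGGTG at 134 bases. Windows were found for 8 isotypes. Of these, 7 held CANNTG, beside 72.3% of all 32851 windows, 4 held CCAAT, beside 37.4%, and 1 (Tubb2a) held TATAAA, beside 13.6%. The GC box GGGCGG was in 6 of 8, beside 35.7%. CAGCTG, which is also counted under CANNTG, was in 1 of 8 (Tuba1b), beside 16.3%, and TTTGAA, a word of cell cycle promoters, in 0 of 8, beside 17.9%. These matches describe the letters of the windows and nothing about binding.

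The other genes of the microtubule system were taken from lists chosen for their role, counted at 2-fold among the genes present in each table. Genes under 1 FPKM in both columns could not be called, so the number kept is given too, and the shares of all kept genes past 2-fold are those above (4.49% higher and 4.4% lower in female KO, 9.9% and 6.47% in male KO, 3.86% and 0.893% in KI). Among the other tubulins, Tubb4a, a beta-tubulin of brain, was at least 2-fold higher in both KO tables, as 1 of 10 genes (6 kept in the female KO, 5 in the male KO and 3 in the KI table). It was 7.69 FPKM in female KO and 2.94 in female WT cells, 2.90 in male KO and 0.234 in male WT cells, and 0.406 in KI and 0.142 in Ctrl-KI cells. The lowest of that list over both sexes, delta-tubulin Tubd1, stayed within 2-fold, at 1.33 FPKM in female KO and 2.27 in female WT cells and 1.54 in male KO and 1.67 in male WT cells. Gamma-tubulin Tubg1, the lowest in the KI table, was 13.03 FPKM in KI and 14.0 in Ctrl-KI cells. Tubb4b was 130.4 FPKM in male KO and 79.8 in male WT cells, 39.2 in female KO and 47.8 in female WT cells, and 65.8 in KI and 68.1 in Ctrl-KI cells.

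The folding machinery, the CCT chaperonin, prefoldin and the tubulin cofactors that bring new tubulin into its dimer, stayed within 2-fold throughout. Of 23 genes in the female KO table and 20 in each of the others, 0 were at least 2-fold higher or lower. Their median log2 ratio was -0.30 in female KO, -0.19 in male KO and -0.16 in KI cells, and below 0 lay 18 of 23, 16 of 20 and 20 of 20 genes, all of them kept. With TPM the medians were -0.14, -0.02 and -0.06, with 16, 11 and 16 genes below 0. The chaperonin subunit Cct3 was the lowest over both sexes, at 65.7 FPKM in female KO and 99.4 in female WT cells and 167 in male KO and 209.6 in male WT cells. Cofactor A, Tbca, was the highest, at 108 FPKM in female KO and 96.4 in female WT cells and 149 in male KO and 147 in male WT cells. Of the KI table, cofactor C, Tbcc, was the lowest, at 15.6 FPKM in KI and 20.4 in Ctrl-KI cells, and H2-Ke2, the prefoldin subunit gene now named Pfdn6, the highest, at 46.9 FPKM in KI and 47.4 in Ctrl-KI cells.

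Among tubulin-modifying enzymes, 1 of 20 was at least 2-fold lower in female KO, 2 of 19 in male KO and 0 of 19 in KI cells, with 17 kept in each table, and 0 were 2-fold higher in any table. Ccdc23, now named Svbp, the small partner that vasohibins need to remove the tail tyrosine, was the lowest over both sexes. It was 56.96 FPKM in female KO and 115 in female WT cells (log2 ratio -1.01), 95.4 in male KO and 337 in male WT cells (-1.81), and 204 in KI and 259 in Ctrl-KI cells (-0.35). Vash2, a vasohibin, was 29.6 FPKM in female KO and 35.4 in female WT cells (-0.25), 33.6 in male KO and 96.0 in male WT cells (-1.49), and 51.6 in KI and 79.9 in Ctrl-KI cells (-0.62), the lowest of the list in that table. The highest were glutamylases, Ttll11 over both sexes, at 3.91 FPKM in female KO and 3.30 in female WT cells and 5.75 in male KO and 4.66 in male WT cells, and Ttll5 in the KI table, at 11.1 FPKM in KI and 8.28 in Ctrl-KI cells. Ttl, the ligase that restores the tyrosine, was 4.32 FPKM in female KO and 4.16 in female WT cells, 5.40 in male KO and 5.55 in male WT cells, and 5.05 in KI and 4.41 in Ctrl-KI cells. Ttc5, the factor that lowers tubulin messages when free tubulin is in excess, was 26.7 FPKM in female KO and 23.1 in female WT cells, 13.4 in male KO and 11.6 in male WT cells, and 9.60 in KI and 10.8 in Ctrl-KI cells. Ttl and Ttc5 were chosen for mention after their values were seen.

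Microtubule-binding, tip and stathmin genes split. In female KO cells 3 of 35 were at least 2-fold higher and 1 lower, in male KO cells 6 of 33 higher and 3 lower, and in KI cells 1 of 33 higher and 0 lower, with 29, 24 and 23 kept. Clip2, a plus-end linker protein, was the highest over both sexes, at 17.7 FPKM in female KO and 5.43 in female WT cells and 10.4 in male KO and 2.99 in male WT cells. Dclk1, a doublecortin-like kinase that binds microtubules, was the lowest, at 53.1 FPKM in female KO and 76.3 in female WT cells and 17.8 in male KO and 163 in male WT cells. Mtap6, a microtubule-stabilising protein, was the highest of the KI table, at 8.66 FPKM in KI and 2.42 in Ctrl-KI cells, with intervals apart, and the kinase Mark4 the lowest, at 24.96 FPKM in KI and 35.8 in Ctrl-KI cells.

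Genes of the organising centre included Akap6, which anchors the centre at the nuclear envelope of muscle cells. Akap6 was the lowest of that list over both sexes, at 10.2 FPKM in female KO and 18.4 in female WT cells (log2 ratio -0.79) and 10.7 in male KO and 43.1 in male WT cells (-1.92), and was 26.8 in KI and 33.4 in Ctrl-KI cells (-0.31). The highest was Cep192, a centrosome protein, at 20.7 FPKM in female KO and 8.31 in female WT cells and 4.23 in male KO and 2.72 in male WT cells. Of the list, 1 of 22 was at least 2-fold higher in female KO cells, 3 of 21 lower in male KO cells and 0 of 21 past 2-fold in KI cells, with 22, 20 and 20 kept. Nin, a microtubule anchor, was the highest of the KI table, at 3.05 FPKM in KI and 2.159 in Ctrl-KI cells, and Akap9, a scaffold of centrosome and Golgi, was the lowest, at 10.1 FPKM in KI and 17.9 in Ctrl-KI cells, with intervals apart.

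Few motor genes passed 2-fold. Among transport kinesin and dynein genes, 1 of 39 was at least 2-fold higher in female KO, 1 of 38 higher and 2 lower in male KO, and 1 of 37 lower in KI cells, with 36, 37 and 35 kept. Kif1a, a fast vesicle kinesin, was 5.70 FPKM in female KO and 1.57 in female WT cells, with intervals apart, and 8.30 in male KO and 4.12 in male WT cells. Bicd2, a dynein adaptor, was 56.9 FPKM in female KO and 105 in female WT cells, 73.1 in male KO and 158 in male WT cells, and 115 in KI and 184 in Ctrl-KI cells. Dync1i1, a dynein intermediate chain, was 3.20 FPKM in KI and 10.6 in Ctrl-KI cells, with intervals apart, and Dynlt1b, a dynein light chain, was the highest of that table, at 5.53 FPKM in KI and 2.64 in Ctrl-KI cells. Of 12 severing and depolymerising genes, 3 were at least 2-fold higher and 1 lower in male KO cells and 0 past 2-fold in the other tables, with 9 kept in the female KO, 11 in the male KO and 8 in the KI table. The mitotic depolymerase Kif2c was the highest, at 2.36 FPKM in female KO and 1.38 in female WT cells and 5.57 in male KO and 0.692 in male WT cells, and Kif24 the lowest, at 0.780 FPKM in female KO and 2.14 in female WT cells and 1.43 in male KO and 5.13 in male WT cells. In the KI table the severing protein gene Fign was the lowest, at 0.955 FPKM in KI and 2.23 in Ctrl-KI cells, and Fignl1 the highest, at 1.84 FPKM in KI and 1.67 in Ctrl-KI cells.

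The genes most like 2 isotypes over the 3 log2 ratios were picked among 7065 genes with at least 5 FPKM in 1 column of every table, by Euclidean distance. Among the nearest to Tubb5, which had the highest mean of the 2 KO ratios (1.01), were Creb3l2 (distance 0.12), Man2a1 (0.17), Irgm1 (0.20) and Atl3 (0.21). Nearest to Tuba4a, which had the lowest mean (-0.94), were 1110059M19Rik (0.24), Olfml2b (0.27), Bicd2 (0.29), Adssl1 (0.29) and Tmem9 (0.32). Among the isotypes themselves the closest pair was Tubb2a and Tuba1b, at 0.23, followed by Tubb2b and Tuba1a, at 0.29, and Tubb2a and Tubb2b, at 0.34. Each distance rests on 3 ratios of unreplicated columns.

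Marker genes of muscle, of dividing cells and of other cell types differed in the same columns, and their part in the isotype ratios was not tested. The 17 muscle markers, of which 15 or 16 were in each table, summed to 5911 FPKM in female KO and 13669.7 in female WT cells, to 6844 in male KO and 25976 in male WT cells, and to 19389 in KI and 23489.8 in Ctrl-KI cells. At least 2-fold lower were 10 of 16 in female KO, 10 of 15 in male KO and 0 of 16 in KI cells, beside 4.4%, 6.47% and 0.893% of all kept genes. Intervals were apart for only 1 muscle marker, Ckm, in each KO table and for 0 in the KI table. Of all kept genes, 0.235%, 0.262% and 3.73% were lower with intervals apart. In male KO cells 1 of 15, Pax7, was at least 2-fold higher, at 16.3 FPKM in male KO and 5.82 in male WT cells. Pax7 was 5.54 FPKM in female KO and 4.33 in female WT cells, and 3.30 in KI and 3.33 in Ctrl-KI cells. Proliferation markers were at least 2-fold higher for 8 of 15 in female KO, 15 of 15 in male KO and 0 of 14 in KI cells, beside 4.49%, 9.9% and 3.86% of all kept genes. Their intervals were apart for 2, 3 and 0 markers, beside 0.664%, 0.603% and 8.27% of all kept genes higher with intervals apart. Aurkb, Bub1, Cenpe and Mki67 were under 1 FPKM in male WT cells and were kept there only through male KO cells. Among KI and Ctrl-KI cells, 9 of the 14 were kept, and the other 5 could not be called. Their sums were 211 FPKM in female KO and 124 in female WT cells, 267 in male KO and 67.8 in male WT cells, and 65.2 in KI and 56.5 in Ctrl-KI cells.

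Fibro-adipogenic markers, of the connective tissue cells of muscle, were at least 2-fold higher for 4 of 11 in female KO, 5 of 11 in male KO and 7 of 11 in KI cells, with 8, 6 and 8 kept, beside 4.49%, 9.9% and 3.86% of all kept genes. Their sums were 789 FPKM in female KO and 362 in female WT cells, 147 in male KO and 47.1 in male WT cells, and 512 in KI and 30.9 in Ctrl-KI cells. The same shares of all kept genes stand beside the endothelial, immune, pericyte and glial counts of higher genes below. In all these lists a gene under 1 FPKM in the control column was kept only through the mutant column. Such a gene could only be higher there, so the counts of higher genes cannot be read against those shares. Of the defining fibro-adipogenic genes, Pdgfra was 13.7 FPKM in female KO and 2.46 in female WT cells, 0.697 in male KO and 0.179 in male WT cells, and 1.19 in KI and 0.162 in Ctrl-KI cells, and Lum was listed at 0 in both male columns. Col1a1 was 158 FPKM in KI and 0.515 in Ctrl-KI cells, and Dcn 28.3 in KI and 0.171 in Ctrl-KI cells. All 8 kept genes of the list were higher in KI cells, with intervals apart. Of these, Col1a1, Col1a2, Dcn, Cd34, Ly6a and Pdgfra were under 1 FPKM in Ctrl-KI cells and were kept only through KI cells. The others passed in both columns, Col3a1 at 112 FPKM in KI and 8.72 in Ctrl-KI cells and Gsn at 57.3 in KI and 19.99 in Ctrl-KI cells. Dpp4, which was not kept, was lower, at 0.0464 FPKM in KI and 0.135 in Ctrl-KI cells. Endothelial markers summed to 38.4 FPKM in female KO and 25.9 in female WT cells, 74.2 in male KO and 3.53 in male WT cells, and 11.3 in KI and 3.79 in Ctrl-KI cells, with 0, 4 and 1 of 11 at least 2-fold higher and 8, 5 and 2 kept. In the male KO table Pecam1, Emcn and Cdh5 were kept only through male KO cells. Immune markers summed to 17.3 FPKM in female KO and 9.63 in female WT cells, 10.2 in male KO and 1.90 in male WT cells, and 35.3 in KI and 1.03 in Ctrl-KI cells, with 1 of 9, 1 of 8 and 2 of 7 at least 2-fold higher, 3, 1 and 2 kept, and Ptprc, their defining gene, at most 0.224 FPKM. That highest Ptprc value was in KI cells, against 0.00345 in Ctrl-KI cells, with intervals apart, though the gene was not kept. Most of the KI sum was Lyz2, at 30.96 FPKM in KI and 0.282 in Ctrl-KI cells, with intervals apart. Tyrobp was 2.59 FPKM in KI and listed at 0 in Ctrl-KI cells, also with intervals apart. Lyz2 and Tyrobp were kept only through KI cells. Itgam was lower, at 0.331 FPKM in KI and 0.689 in Ctrl-KI cells, with intervals apart. Pericyte and smooth muscle markers, with desmin among them, summed to 769.7 FPKM in female KO and 1489 in female WT cells, 1516 in male KO and 3252 in male WT cells, and 2961 in KI and 3507 in Ctrl-KI cells. Without Des and Acta2, which muscle cells also express, the other 7 summed to 149 FPKM in female KO and 122 in female WT cells, 152 in male KO and 89.7 in male WT cells, and 218 in KI and 53.1 in Ctrl-KI cells, higher in each mutant column. Most of each of these sums was Tagln, at 111 FPKM in female KO and 97.0 in female WT cells, 124 in male KO and 83.4 in male WT cells, and 158 in KI and 46.8 in Ctrl-KI cells. Its status in the male KO table was not OK. Also among the 7, Pdgfrb, a pericyte receptor, was 26.7 FPKM in KI and 0.442 in Ctrl-KI cells, with intervals apart. The pericyte and smooth muscle markers were at least 2-fold higher for 1, 3 and 5 of 9, with 8, 5 and 8 kept. They were at least 2-fold lower for 2, 1 and 0 of 9, beside 4.4%, 6.47% and 0.893% of all kept genes. Schwann and glial markers summed to 42.2 FPKM in female KO and 47.4 in female WT cells, 81.2 in male KO and 81.6 in male WT cells, and 67.5 in KI and 73.4 in Ctrl-KI cells, with 0 of 8, 0 of 7 and 1 of 7 at least 2-fold higher and 4, 1 and 2 kept. Without Pmp22, a widely expressed gene, they summed to 10.7 FPKM in female KO and 9.35 in female WT cells, 1.04 in male KO and 0.398 in male WT cells, and 2.63 in KI and 0.243 in Ctrl-KI cells. Ngfr was 1.57 FPKM in KI and 0.149 in Ctrl-KI cells and Sox10 0.621 in KI and listed at 0 in Ctrl-KI cells, both with intervals apart. In these bulk samples, fewer cells of a type and less RNA per cell cannot be told apart.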

How the data were processed

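The authors deposited 3 gene tables in the layout of Cufflinks and Cuffdiff, per the file headers: for each of 2 columns they hold FPKM, its bounds and a status. Per the submitters' processing notes the build was mm9 and the tools were edgeR, Cuffdiff, HTSeq 0.6.1, TopHat2 2.0.12, Bowtie2 2.2.4, bedtools 2.16.2 and Cufflinks 2.2.1; their roles, the confidence level, the scaling between libraries and the annotation are not given in the sources used here. Libraries were put in groups by title, and the KI table holds 1 pooled column per group.

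Loci without a symbol (0, 5680 and 5971) or with a status other than OK (6, 61 and 15) were left out of the kept genes, and genes under 1 FPKM in both columns were not kept. Sums of FPKM over classes and marker lists took in loci of every status and level. Ratios were log2((FPKM + 1)/(FPKM + 1)), mutant over control, formed within each table; a call was 2-fold. With 1 column per group no test was run, and the code was tested on simulated folds. Starts are printed 1 higher than in the files, because 15 of 30 isotype loci had the RefSeq gene length only with starts counted from 0 and 0 with starts counted from 1. Coding ends and shared stretches came from GENCODE M21 transcripts (50 and 100 bases, longest complete coding frame), promoters from RefSeq.

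The isotypes and lists were chosen with earlier results of these data known. Named are all 10 isotypes, the highest and lowest gene of each list, and the 5 genes nearest to the isotypes with the highest and lowest mean KO ratio, of which 1 is not reported here; other genes named were chosen after their values were seen. Alternatives were TPM over loci with a symbol, median-centred ratios, adding 0.1 or 5 FPKM, filtering at 5 FPKM or not at all, non-overlapping intervals, a 1.5-fold call, every status, merged loci, and shares over the listed isotypes alone; scaled class sums and marker sums without Des, Acta2 or Pmp22 were added after seeing the data. The software was numpy 2.4.6 and pandas 2.3.3 under python 3.11.15, with matplotlib 3.10.9 for plots.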

Additional observations from a re-analysis of the deposited data

Results flagged for a closer look

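Tuba1c had log2 ratios of opposite sign in the 2 sexes, -0.0294 in female KO over WT cells and 1.7134 in male KO over WT cells. The difference between the sexes was not tested, since each value comes from 1 library per group, and the female ratio is close to 0. The female ratio was 0.06 with median-centred ratios and 0.14 with TPM, so the signs were then the same. Tuba1c shares 61.0% of its 50-base stretches with transcripts of other genes.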

How the results depend on the processing

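No paired analysis was possible because the KI table gives 1 pooled column per group and the KO groups have 1 library each; for the same reason no replicate could be left out. No isotype past 2-fold changed sign under the alternatives run. In male KO cells the count of isotypes at least 2-fold lower was 1 instead of 2 with a pseudocount of 5 FPKM, with median-centred ratios and with TPM, since Tubb3 moved to -0.86, -0.998 and -0.88. With non-overlapping intervals as the call, male KO cells had 0 isotypes higher and 0 lower, and KI cells had 2 lower. With a 1.5-fold call the counts of lower isotypes were 4 in female KO, 5 in male KO and 2 in KI cells. With TPM 1 isotype was at least 2-fold higher in female KO cells, namely Tuba8, which passed the filter only on that scale. TPM moved the median log2 ratio of all genes to 0.10 in the female KO and 0.15 in the male KO table. Of the ratios near 0, Tuba1c and Tubb3 in female KO and Tubb2b in KI cells turned positive with TPM and with median-centred ratios, and the log2 ratio of the summed beta-tubulins in female KO cells turned to 0.05 with TPM, an alternative for the sums chosen after seeing the data. Over the listed isotypes alone the Tubb6 share in Ctrl-KI cells was 67.4% instead of 62.5%, outside the range its interval gives, and the other 59 shares stayed inside theirs. Read depth is unknown, and Tuba8 was not detectable above an interval that reaches 0.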
